A study of Mus musculus with 8 samples.

Results

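The miR-99, miR-100 and miR-125 microRNAs (miRNAs) of the mouse were described in whole kidneys of diabetic Akita mice and of control mice. The 10 members were taken by their names on the array (mmu-miR-99a-5p, mmu-miR-100-5p, mmu-miR-125b-5p and so on), as the 5p and 3p arms of miR-99a, miR-99b and miR-125a, miR-100-5p, miR-125b-5p and the 3p arms of the miR-125b-1 and miR-125b-2 precursors. All 10 had probes on the array, which carries 1881 mouse miRNAs. The let-7 miRNAs that lie beside them in the genome were left out. The 4 control kidney samples came from male C57BL/6J mice. Their titles call them Mock without saying whether a mock treatment was given. The 4 Akita kidney samples came from male mice of the strain C57BL/6-Ins2Akita/J, which carries a mutant insulin gene Ins2. Its misfolded proinsulin damages the pancreatic beta cells and leaves the mice diabetic. The age of all 8 samples is given as 36 without a unit, and the labels do not state how many mice gave the kidneys; p-values here reflect sample-to-sample spread alone, which may be technical.

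MiR-125 is the vertebrate counterpart of lin-4, the first miRNA found in worms, and represses among others Lin28, the inhibitor of let-7 maturation, and the tumour suppressor p53. MiR-99 and miR-100 form an old family of their own, known for repressing mTOR and the IGF1 receptor, which carry growth and insulin-like signals. The genome holds these families side by side: a miR-99 or miR-100 gene, a let-7 gene and a miR-125 gene lie in the same order on each of 3 chromosomes. In the RefSeq annotation Mir99a and Mir125b-2 were on chromosome 16, inside the span of no other gene. Mir100 and Mir125b-1 lay on chromosome 9 inside the span of the long non-coding RNA gene Mir100hg. Mir99b and Mir125a lay on chromosome 17 inside the span of the protein-coding gene Spaca6.

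The mature sequences show which members can share targets and how their probes differ. They are given 5′ to 3′ from RefSeq (GRCm38.p6), with the seed, bases 2 to 8, in capitals. The first 3 have the seed ACCCGUA, which only these 3 of 1679 mature mouse sequences in that table carry.
miR-99a-5p: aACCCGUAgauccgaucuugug
miR-99b-5p: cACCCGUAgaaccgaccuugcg
miR-100-5p: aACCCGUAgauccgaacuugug
miR-125a-5p: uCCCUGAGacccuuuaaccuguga
miR-125b-5p: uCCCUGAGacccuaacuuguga
The last pair of lines has the seed CCCUGAG, carried by 5 sequences of the table. The others were miR-351-5p, miR-6367 and miR-6394, and none of these was above background on any of the 8 arrays. MiR-125a-5p and miR-125b-5p share their first 13 bases and differ by an edit distance of 3. From miR-99a-5p to miR-100-5p there was 1 substitution, U16A, counted from the 5′ end. From miR-99a-5p to miR-99b-5p there were 4, A1C, U11A, U16C and U21C.

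The probes of the array pair with the 3′ end of a miRNA, and for miR-99a-5p and miR-100-5p they differ at the same single place. Their 18-base probes are printed with that place, position 7 from the probe's 5′ end, in capitals.
miR-99a-5p probe: cacaagAtcggatctacg
miR-100-5p probe: cacaagTtcggatctacg
In the array annotation, on mm9, the miR-99a-5p probe of 18 bases is placed at chr16:77599190-77599206 and the miR-100-5p probe of 18 bases at chr9:41339525-41339541. The longer miR-99b-5p probe, of 16 bases, is placed at chr17:17967165-17967179. The probes of miR-125a and miR-125b-5p have no position there. MiR-125b-5p is made from both Mir125b-1 and Mir125b-2 with the same sequence, so its signal is the sum of the loci on chromosomes 9 and 16. The 3p arms of these precursors do differ:
miR-125b-1-3p: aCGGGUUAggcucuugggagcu
miR-125b-2-3p: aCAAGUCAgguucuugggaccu

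Which arms were measured differed sharply between the strands. Of the 10 members, 6 were well above background on all 8 arrays: the 5p arms of miR-99a, miR-99b, miR-100, miR-125a and miR-125b, and miR-125a-3p. The other 4, miR-99a-3p, miR-99b-3p, miR-125b-1-3p and miR-125b-2-3p, were well above background on none, and their summed signal stayed under the floor of 23.65 on every array. The highest value among them was the 20.4 of miR-99b-3p in control replicate 2. With both 3p arms of miR-125b below background, nothing on the array divides miR-125b-5p between its loci. Among the miRNAs on the array as a whole, 257 were above background on all arrays, and 285 were above it on all 4 arrays of at least 1 group and were tested.

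Levels below are log2 of the summed probe signal after each array was divided by the 75th percentile of its probes measured on all 8 arrays. Each probe binds with its own strength, so that these levels compare a miRNA between kidneys but not with another miRNA. Fold changes are the Akita mean less the control mean, in log2 units, and an adjusted p comes from limma, a linear model fitted across all 285 tested miRNAs, with Benjamini-Hochberg adjustment and a threshold of 0.05. No member passed that threshold, against 42 of all tested miRNAs (14.7%). Of the 6 measured members, 2 had a value above 0 and 4 below, with a median of -0.054, beside 167 above and 118 below and a median of 0.063 over all tested miRNAs. In whole kidney, fewer cells of a type and less of a miRNA per cell cannot be told apart.

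MiR-125b-5p came closest to the threshold. Its level was 11.17, 11.29, 11.28 and 11.31 in control replicates 1 to 4 and 10.96, 10.99, 11.04 and 11.16 in the Akita kidneys. Every Akita value lay below every control value, although Akita replicate 4 came within 0.02 of control replicate 1. The group means were 11.26 ± 0.06 and 11.04 ± 0.09 (SD, n = 4 each), a log2 fold change of -0.22 ± 0.07 SE (95% interval -0.38 to -0.07, limma adjusted p = 0.059), or 1.17-fold lower. It was the only member whose groups did not overlap, which 22.8% of all tested miRNAs showed, and it ranked 47th of the 285 by p. Its probes of 16 and 17 bases gave -0.25 and -0.22. Without Akita replicate 4 the fold change was -0.26 with a limma adjusted p = 0.042.

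The partners of miR-125b-5p on chromosomes 16 and 9 had smaller negative values. MiR-99a-5p, from the chromosome 16 cluster, stood at 9.45, 9.59, 9.56 and 9.58 in the control kidneys and at 9.40, 9.42, 9.42 and 9.55 in the Akita kidneys. Akita replicate 4 lay inside the control range and the other Akita values below it. The log2 fold change was -0.097 ± 0.067 SE (95% interval -0.25 to 0.05, limma adjusted p = 0.33). MiR-100-5p, from the chromosome 9 cluster, stood at 7.49, 7.64, 7.63 and 7.61 in control and at 7.41, 7.45, 7.45 and 7.58 in Akita. Again Akita replicate 4 alone lay inside the control range. Its log2 fold change was -0.12 ± 0.07 SE (95% interval -0.28 to 0.03, limma adjusted p = 0.24).

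The chromosome 17 cluster stood nearer to 0 in its 5p arms. MiR-99b-5p stood at 7.68, 7.73, 7.66 and 7.71 in control and at 7.69, 7.65, 7.69 and 7.92 in Akita. The Akita kidneys lay in or just below the control range apart from replicate 4, the highest of all 8. The log2 fold change was 0.041 ± 0.075 SE (95% interval -0.13 to 0.21, limma adjusted p = 0.72). MiR-125a-5p stood at 9.01, 9.08, 9.08 and 9.05 in control and at 8.97, 8.99, 9.02 and 9.20 in Akita. Replicate 4 was once more the highest of all 8 arrays, and 2 of the Akita values lay below the control range. The change was -0.012 ± 0.071 SE (95% interval -0.17 to 0.15, limma adjusted p = 0.94).

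MiR-125a-3p, the other arm of the miR-125a hairpin, was the member with the highest fold change. Its mature sequence carries a seed that no other sequence of the table has.
miR-125a-3p: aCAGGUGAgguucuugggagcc
It stood at 6.83, 6.56, 6.65 and 6.67 in control and at 7.00, 7.15, 6.66 and 6.88 in Akita. The Akita values were higher on average, but replicate 3 fell among the controls. The log2 fold change was 0.25 ± 0.11 SE (95% interval 0.0013 to 0.49, limma adjusted p = 0.14). Its probes disagreed: those of 14 and 15 bases gave 0.37 and 0.42, and that of 16 bases, the brightest, gave -0.0038. The probe of 13 bases was above background on 2 arrays. The spots of a probe on 1 array had a median coefficient of variation of 11.7% to 15.6% for the measured probes of miR-125a-3p and of 3.79% and 4.14% for those of miR-125b-5p.

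**Figure D1:**
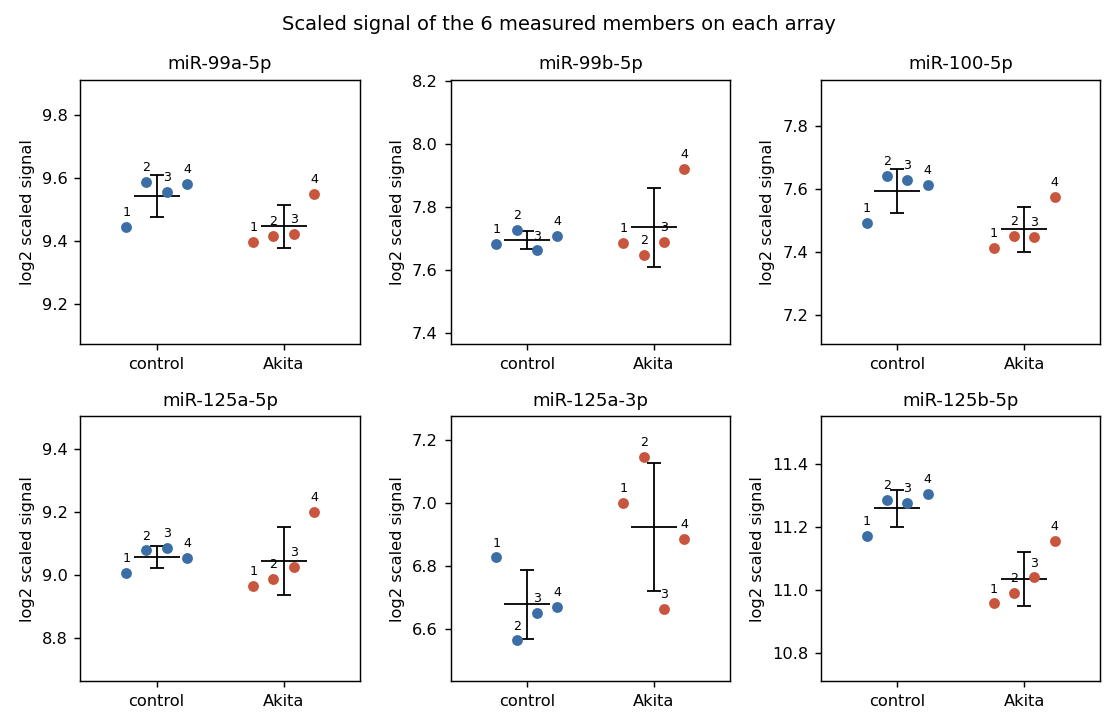
The log2 scaled signal of the 6 measured members (vertical axes, all spanning the same range) in control (blue) and Akita (red) kidneys, 1 point per array with its replicate number, and the mean with SD (n = 4) in black. For miR-125b-5p every Akita point lies below every control point. For each of the 5 5p arms Akita replicate 4 is the highest Akita point, which is not particular to the members.

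**Figure D2:**
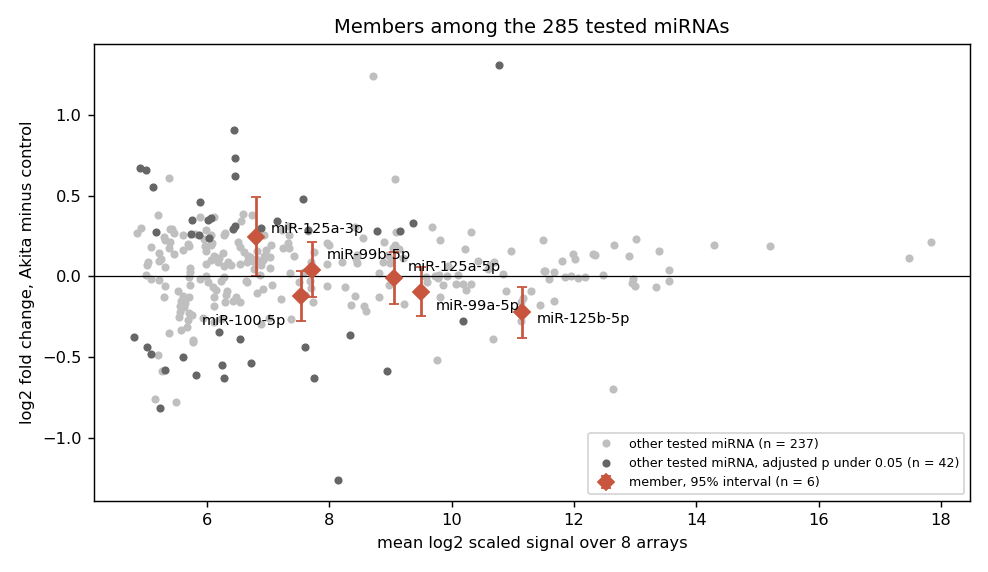
The log2 fold change of the 285 tested miRNAs against their mean log2 scaled signal, with the 6 members as red diamonds with 95% intervals from limma. The members lie between -0.22 and 0.25, and the interval of miR-125b-5p ends below 0.

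In each of the 5 5p arms the highest Akita value was that of replicate 4, whose array was also the dimmest before scaling. These are scaled values, and the order of the replicates depends on the scaling. Control replicate 1 was the lowest control for miR-99a-5p, miR-100-5p, miR-125a-5p and miR-125b-5p. Neither trait was particular to the members. Akita replicate 4 was also the highest for all tubule, endothelium and mesenchymal miRNAs read as markers below. Of the leukocyte markers it was so for miR-142a-3p and miR-342-3p alone. Control replicate 1 was lowest for the tubule and endothelium markers, miR-143-3p and miR-150-5p, but not for the other mesenchymal and leukocyte ones. The share over all tested miRNAs was not counted. The closest likeness among the members was between miR-99a-5p and miR-100-5p. After each was centred on its own mean, they differed by a root mean square of 0.017 on the log2 scale over the 8 arrays, where the median of all 40470 pairs of tested miRNAs was 0.23. A closer likeness was found in 1 pair. These are the members whose probes differ by 1 base; the part of cross-hybridisation in this likeness was not tested. By their separate probes, the 19-base ones gave log2 fold changes of -0.12 for miR-99a-5p and -0.11 for miR-100-5p, while the 18-base ones gave -0.039 and -0.22. The 18-base probe of miR-100-5p was dim, with mean scaled signals of 30.7 in control and 26.5 in Akita. Its spots had a median coefficient of variation of 13.2%. The others had group means of 151 to 562 and coefficients of 4.08% to 6.33%. MiR-125a-5p and its cluster partner miR-99b-5p differed by 0.042. The other pairs of 5p arms ran from 0.054 to 0.14, the widest being miR-125b-5p with miR-99b-5p, and miR-125a-5p with miR-125b-5p stood at 0.11. MiR-125a-3p and its own 5p arm differed by 0.22, near the median of all pairs.

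A difference between a pair of members on the same array does not depend on how the arrays are scaled by a factor. Of 8 planned pairs, 7 had both members measured. Each was compared with an exact two-sided permutation test over the 70 assignments of the 8 arrays, whose smallest possible p is 0.0286, adjusted over the 7 pairs. In 4 pairs the groups did not overlap and that smallest p was reached, where 26.5% of all 40470 pairs of tested miRNAs did not overlap. The 7 pairs share members and are not independent, so that their count is a description. Their adjusted p of 0.05 equals the threshold of 0.05 and so does not pass it. Without control replicate 1, and likewise without control replicate 4, 5 pairs passed with an adjusted p of 0.04, and outlier spots kept, the mean of log2 over probes and normexp gave 6, 5 and 7 pairs. In the other 18 of the 23 alternatives run for the pairs, none passed. For miR-125a-5p minus miR-125b-5p the adjusted exact permutation p rose to 0.0667 with quantile normalization and with cyclic loess. It was also 0.0667 without control replicate 3 and without each Akita replicate in turn.

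The paralogs miR-125a-5p and miR-125b-5p stood furthest apart in this respect. MiR-125a-5p minus miR-125b-5p was -2.167, -2.208, -2.192 and -2.251 in control replicates 1 to 4 and -1.992, -2.005, -2.016 and -1.955 in the Akita kidneys. The groups were separated by more than their own width. The means were -2.20 ± 0.04 and -1.99 ± 0.03 (SD, n = 4 each), a shift of 0.21 towards miR-125a-5p (exact permutation p = 0.0286, adjusted p = 0.05). Of the miR-99 and miR-100 family, miR-99b-5p minus miR-100-5p stood at 0.19, 0.08, 0.03 and 0.09 in control and at 0.27, 0.20, 0.24 and 0.35 in Akita. The gap between the groups was small there, and the shift was 0.16 (exact permutation p = 0.0286, adjusted p = 0.05), or 0.094 with normexp. MiR-99a-5p minus miR-99b-5p went from 1.85 ± 0.06 to 1.71 ± 0.06 (SD, n = 4 each), with overlapping groups and a shift of -0.14 (95% interval -0.24 to -0.04, exact permutation p = 0.0571, adjusted p = 0.0667), or -0.073 with quantile normalization.

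The other pairs set a miR-99 or miR-100 member against a miR-125 member, or miR-99a-5p against miR-100-5p. Where miR-125b-5p is one of them, the difference takes in both its loci and is not a ratio within 1 cluster. MiR-99a-5p minus miR-125b-5p was -1.73, -1.70, -1.72 and -1.72 in control and -1.56, -1.57, -1.62 and -1.61 in Akita. All Akita values were higher, with a shift of 0.13 (exact permutation p = 0.0286, adjusted p = 0.05). MiR-100-5p minus miR-125b-5p shifted by 0.10, from -3.67 ± 0.02 to -3.56 ± 0.02 (SD, n = 4 each, exact permutation p = 0.0286, adjusted p = 0.05). That shift was 0.036 with cyclic loess (adjusted exact permutation p = 0.486) and 0.077 with quantile normalization (adjusted exact permutation p = 0.229), and 0.23 with normexp. Both of these pairs share miR-125b-5p, as does miR-125a-5p minus miR-125b-5p, and they are not independent. MiR-125b-5p is the member whose own groups did not overlap. MiR-99b-5p minus miR-125a-5p, on chromosome 17, went from -1.36 ± 0.04 to -1.31 ± 0.03, a shift of 0.053 (95% interval -0.01 to 0.12, exact permutation p = 0.114, adjusted p = 0.114); it was 0.023 with cyclic loess, 0.033 without control replicate 3 and 0.085 with normexp. MiR-99a-5p minus miR-100-5p shifted by 0.026 (95% interval 0.0019 to 0.049, exact permutation p = 0.0571, adjusted p = 0.0667). It turned to -0.077 with normexp background correction and to -0.011 with the brightest probe of each, and was 0.080 with quantile normalization, 0.076 with cyclic loess and 0.084 with the mean of log2 over probes.

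**Figure D3:**
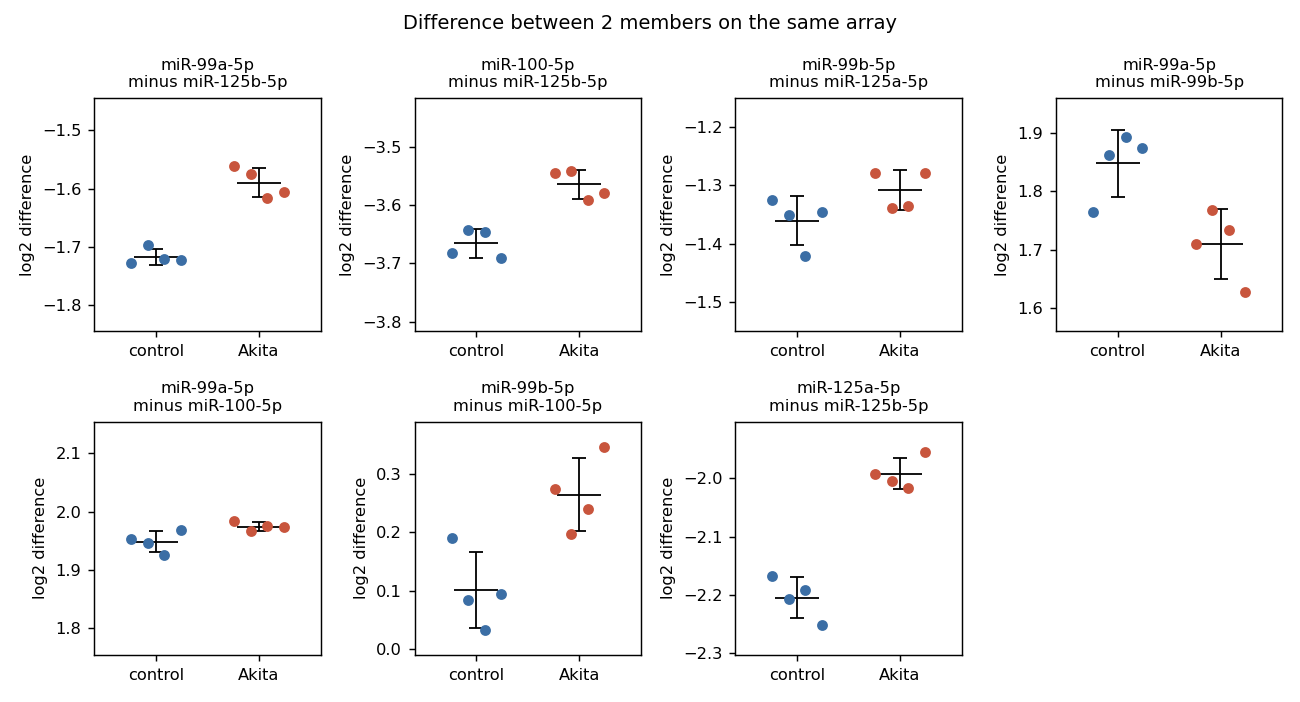
The log2 difference between a pair of members on the same array, for the 7 measured pairs, in control (blue) and Akita (red) kidneys, 1 point per array, with the mean and SD (n = 4) in black; all vertical axes span the same range. The widest separation is that of miR-125a-5p minus miR-125b-5p, from -2.20 in control to -1.99 in Akita.

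The level of each member relative to the other kidney depended on the reference chosen. The raw 75th percentile used for scaling ran from 369 to 446 in Akita and from 495 to 520 in control. Controls occupied row 1 of the slide and Akita kidneys row 2, and the effect of the row cannot be told apart from that of the group. Without scaling, 5 of the 6 members were called lower, among 104 of 285 tested miRNAs (36.5%), and with the labelling spike-ins as reference 5 again, among 140 (49.1%). MiR-125b-5p was negative under all 26 alternatives, from -0.53 with the spike-ins to -0.13 with the percentile over all probes, and was called in 10 of them. Beside the unscaled and spike-in values these were the mean array's median log2 ratio (-0.28, where 11.2% of tested miRNAs were called lower), cyclic loess (-0.24, 10.2%), normexp (-0.23, 2.81%), the mean of log2 over probes (-0.23, 4.91%), outlier spots kept (-0.25, 7.02%), a variance trend (-0.22, 6.67%), the deposited value table (-0.26, 7.02%) and the fit without Akita replicate 4 (-0.26, 3.86%). MiR-100-5p was called lower with cyclic loess (-0.21) and with quantile normalization (-0.16, where 8.42% of tested miRNAs were). MiR-125a-3p was called higher with normexp alone (0.23, where 28.4% were). Relative to the median of all tested miRNAs, miR-125b-5p stood at -0.29 in the chosen scaling, without scaling and with the spike-ins alike. A scaling by a factor cannot change that value. It was -0.36 with normexp, -0.26 with quantile normalization and with cyclic loess, and -0.22 with the floor 4 times higher. MiR-99b-5p, miR-125a-5p and miR-125a-3p changed sign between scalings.

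**Figure D4:**
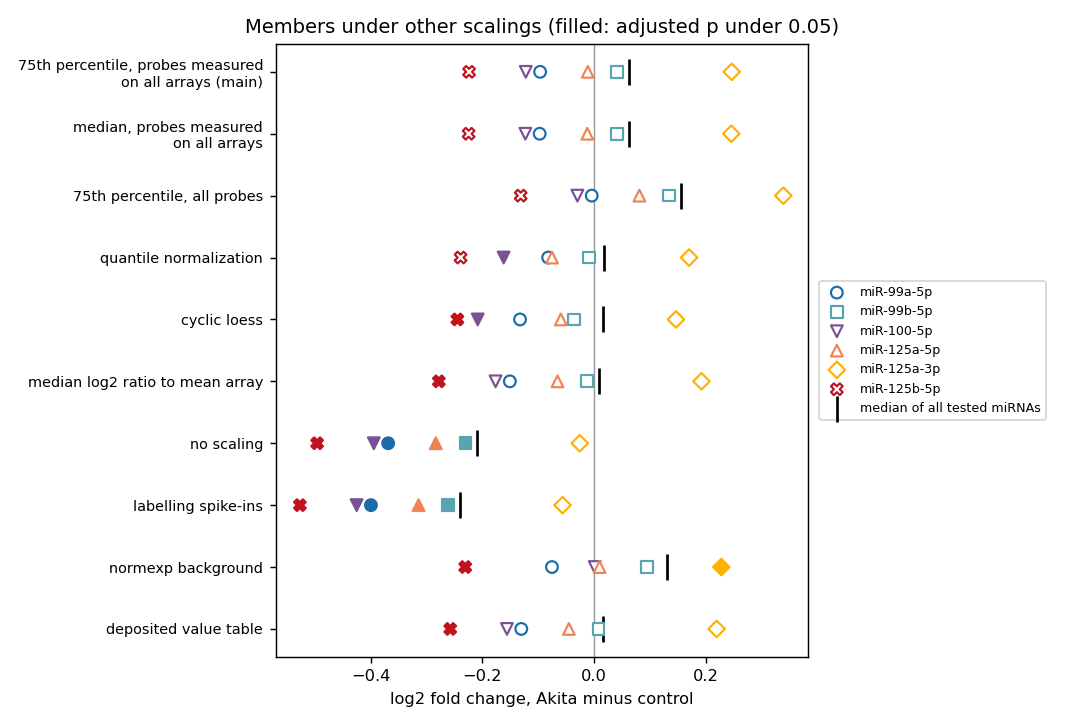
The log2 fold change of each measured member (horizontal axis) under the chosen scaling, 7 others, another background correction and the deposited value table; filled markers have a limma adjusted p under 0.05, and black bars show the median of all tested miRNAs. Scalings by a factor move all members by the same amount as the median, from 0.16 with the percentile over all probes to -0.24 with the spike-ins.

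The same likeness was taken with 267 tested miRNAs, leaving out the members and the let-7 family, and the 2 nearest of these are given for each member. For miR-125b-5p they were miR-20a-5p and miR-19a-3p of the proliferation-linked miR-17-92 cluster, at root mean square differences of 0.051 and 0.061, with the member miR-100-5p between them at 0.055. MiR-195a-5p, of the cell cycle miR-15 family, was among the nearest to miR-99a-5p (0.041), miR-100-5p (0.053) and miR-125a-5p (0.040). MiR-10b-5p, a HOX cluster miRNA and one of the listed relatives below, followed for miR-99a-5p (0.051), miR-19a-3p was the nearest of the 267 to miR-100-5p (0.050), well behind the member miR-99a-5p, and miR-106b-5p was near to miR-125a-5p (0.042) and miR-99b-5p (0.037). MiR-7050-5p lay nearest to miR-99b-5p (0.035). MiR-125a-3p had no neighbour as close, with miR-8101 at 0.062 and miR-494-3p at 0.089.

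Of 8 listed relatives, the other arm of miR-100, miR-351, miR-670-5p and the miR-10 family, 3 were tested and 5 were above background on no array. MiR-10a-3p fell, with a log2 fold change of -0.39 ± 0.10 SE (limma adjusted p = 0.036). MiR-10a-5p stood at -0.15 (limma adjusted p = 0.16) and miR-10b-5p at -0.090 (limma adjusted p = 0.39). The median of the 3 was -0.15.

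Markers of cell types were read beside the members. All 3 listed miRNAs of the kidney tubule were measured and none was called, and the same held for the 2 of endothelium and the 4 of smooth muscle and other mesenchymal cells. Of 6 leukocyte miRNAs, 5 were lower, where 6.32% of all tested miRNAs were, and none higher, and their summed scaled signal ran from 1069 to 1232 in control and from 732 to 872 in Akita. Of 3 erythrocyte miRNAs, only miR-451a was tested, at 86.7 to 1204 in control and 581 to 772 in Akita, and miR-486a-5p was above background on no array. Of the neuronal pair, miR-124-3p was above background on no array and miR-9-5p stood at -0.27 (limma adjusted p = 0.15). The liver miRNA miR-122-5p and the muscle miRNA miR-1a-3p were measured on some arrays of each group, and miR-133a-3p and miR-206-3p on none. The part of the leukocyte miRNAs' fall in the values of miR-125b-5p was not tested.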

How the data were processed

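Total RNA from 8 kidney samples (100 ng per labelling) was labelled with Cy3, per the labels' protocols. The same protocols give hybridisation to 1-colour Agilent miRNA arrays on 1 slide. The deposited scanner files hold spot intensity on a linear scale, extracted with Agilent Feature Extraction 12.0.3.1, per the submitters' processing notes; a spatial trend was removed, with background correction and dye normalization off, per the file headers. The deposited value table holds a linear ratio: comparison with the scanner files showed it to be a miRNA's total signal over an array factor and over its median across arrays. Its column medians ran from 0.70 to 1.22. No source used here says how the array factors were made.

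Control and outlier-flagged spots (2.03% to 3.02% per array) were left out, and no spot was saturated. Spots were averaged per probe, arrays divided by the 75th percentile of the 451 probes above background on all arrays (on at least 0.5 of their spots), probes summed per miRNA, sums under 23.65, the lowest sum of any miRNA above background on all arrays, set to that floor, and log2 taken. MiRNAs above background on all 4 arrays of a group were tested with limma 3.58.1 in R 4.3.3 (6 residual and 9.16 total degrees of freedom). Limma was checked on simulated data with independent noise and planted changes larger than those of the members. That check does not cover changes as small as theirs. The number of arrays limits the precision. Pairs of members were compared with exact permutation tests; their 95% intervals use the pooled SD. All 10 members are named. Other miRNAs are the 2 nearest to each measured member, the listed relatives and the cell type markers. The members and lists were chosen with earlier results of these data known. Alternatives were 7 scalings, normexp with an offset of 50, other probe summaries, floors and filters, outlier spots kept, a trend, the value table, the replicate block and each array left out. All 28 probes of the members matched the complement of the RefSeq mature sequences from the 3′ end.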

Additional observations from a re-analysis of the deposited data

Results flagged for a closer look

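Among the 26 groups of 4 values looked at, 13 quantities in each of the control and Akita kidneys, 1 had a sample far from the others. For miR-99b-5p in the Akita kidneys, replicate 4 (7.92) lay so far above the other values (7.65 to 7.69) that the gap was 0.848 of the group's range, past Dixon's 95% value of 0.829. Chance gives such a gap in about 1 in 20 groups. The array of that replicate was the dimmest before scaling, at 369 against 433 to 446 for the other Akita arrays. The gap was taken on the scaled values alone and depends on the scaling.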

How the results depend on the processing

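The count of called members, 0 in the analysis as reported, was 5 without scaling and with the labelling spike-ins, 2 with cyclic loess and with normexp, and 1 with quantile normalization, the median log2 ratio to the mean array, the mean of log2 over probes, outlier spots kept, a variance trend and the deposited value table. With 1 array left out it ran from 0 to 1. Over all tested miRNAs the 42 calls (24 higher, 18 lower) became 109 without scaling (5 higher, 104 lower), 147 with the spike-ins (7 and 140), 89 with normexp (81 and 8), 14 with the percentile over all probes (10 and 4), 9 with the floor 4 times higher and 6 without the filter on dim miRNAs. With 1 array left out they ran from 20 (without Akita replicate 1) to 40. The split was 21 higher and 32 lower with the median log2 ratio and 16 and 20 with the value table.

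Signs turned for values near 0. MiR-99b-5p was -0.23 without scaling, -0.26 with the spike-ins, -0.0089 with quantile normalization, -0.036 with cyclic loess, -0.013 with the median log2 ratio and -0.020 to 0.071 with 1 array left out. MiR-125a-5p was 0.0097 with normexp, 0.081 with the percentile over all probes and -0.064 to 0.015 with 1 array left out. MiR-125a-3p was -0.026 without scaling, -0.057 with the spike-ins and -0.0038 with its brightest probe. MiR-100-5p was 0.0010 with normexp, where miR-99a-5p minus miR-100-5p was -0.077; with the brightest probes that difference was -0.011. The pairs past the threshold, 0 as reported, numbered 7 with normexp, 6 with outlier spots kept and 5 with the mean of log2 over probes; with 1 array left out they ran from 0 to 5 (without control replicate 1 and without control replicate 4). The adjusted p of these pairs falls once over 4 of the 7 reach the smallest p. The other 6 pairs kept their sign under all 23 alternatives run for them. Scalings by a factor, the value table, the floors and the replicate block left these differences unchanged to rounding and could not turn a sign.

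The labels do not say whether the replicate numbers, which are also the slide columns, pair the samples. Deviations of same-numbered samples correlated at 0.096, -0.30, 0.34 and -0.35. Each control sample correlated best with an Akita sample of another number, at 0.40, 0.22, 0.46 and 0.34 for control replicates 1 to 4. Of the Akita samples, only replicate 3 correlated best with its own number. Such correlations cannot settle whether the samples were paired. With the replicate block, 25 miRNAs were called and 0 members, with miR-125b-5p at an adjusted p = 0.22 (limma), and all 7 pairs had an exact permutation p of 0.125, the smallest that 4 pairs of samples allow. Depth is limited by signal over background for the 4 dim 3p arms.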
